A study of Mus musculus with 28 samples.

Results

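Microglia and macrophages were looked for among single cells sorted from the adult mouse subependymal zone (SEZ), the stem cell niche along the lateral ventricles, and in 1 sort also from the olfactory bulb, as wells chosen by the summed level of 6 genes. A well counted if it held at least 1000 transcripts, ERCC spike-in RNA left out, and if C1qa, C1qb, C1qc, Csf1r, Ctss and Cd74 together reached 15 per 10000 of those transcripts. Of 2688 wells, 1789 passed the first condition and 56 of these (3.13%) passed both and are called member wells. The other 1733 are the other wells below, and every level is given in transcripts per 10000 non-ERCC transcripts of a well. In 20 member wells Cd74 was at 5 transcripts or more, and these are described apart from the remaining 36.

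The study sorted cells of Bl/6 mice with several reporters and antibodies and read them by SORT-seq, in which single sorted cells are lysed in wells and counted from the 3′ ends of their transcripts with random barcodes. Its 28 libraries of 96 wells form 7 sorts of 4 libraries each. The number of mice behind each library is not given in the sources used here, so p-values measure the spread between libraries, which may be technical. Troy-GFP cells came from Troy-GFPiresCreER +/ki mice and Ki67-RFP cells from Ki67-tagRFP ki/ki mice, knock-in reporters of a stem cell gene and of a gene of dividing cells. The tdTomato cells came from Ki67-iresCreER +/ki Rosa-tdTomato +/ki mice given tamoxifen once at 5 mg, so that the Mki67 locus drives the recombinase, and were taken 2 or 60 days later. The mixed day 60 sort held tdTomato cells of the SEZ or of the olfactory bulb together with oligodendrocytes bound by an O4 antibody. GLAST/EGF cells were sorted with an antibody to GLAST, on binding of labelled EGF, or both, and Prom1/CD24 cells with antibodies to those surface proteins. Mice were 8 to 10 weeks old, except in the day 60 tdTomato sort (16 to 19 weeks) and the mixed sort (8 to 19 weeks). The labels of the 7 sorts name no gate for immune cells.

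Microglia are the resident macrophages of the brain tissue. They live on signals through the receptor Csf1r and carry the fractalkine receptor Cx3cr1. They are also the main makers of C1q, the first component of the complement cascade, in the brain. In the steady state they show little MHC class II, the complex that presents peptides to helper T cells and whose assembly depends on the invariant chain Cd74. Macrophages of the brain's borders, monocytes, dendritic cells and B cells share some of these genes, so the 6 genes alone do not separate them.

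The label held for only some of the member wells. C1q transcripts, counted over the 3 subunit genes, were present in 28 member wells, at 6.03 transcripts or more, and were at exactly 0 in the other 28. With the minimum depth lowered to 500 transcripts 46 of 77 member wells held C1q, so the even split depends on that minimum. Every one of the 28 C1q wells also held Csf1r, Ctss and Cx3cr1. Among the 28 wells without C1q, 11 had Cd74 under 5, 10 had Cd74 of 5 or more with the B cell gene Cd79b, and 7 had Cd74 of 5 or more without it. This division was made after the values were seen, and the sets are called by their genes. The heat map of levels shows the 5 sets side by side.

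**Figure D1:**
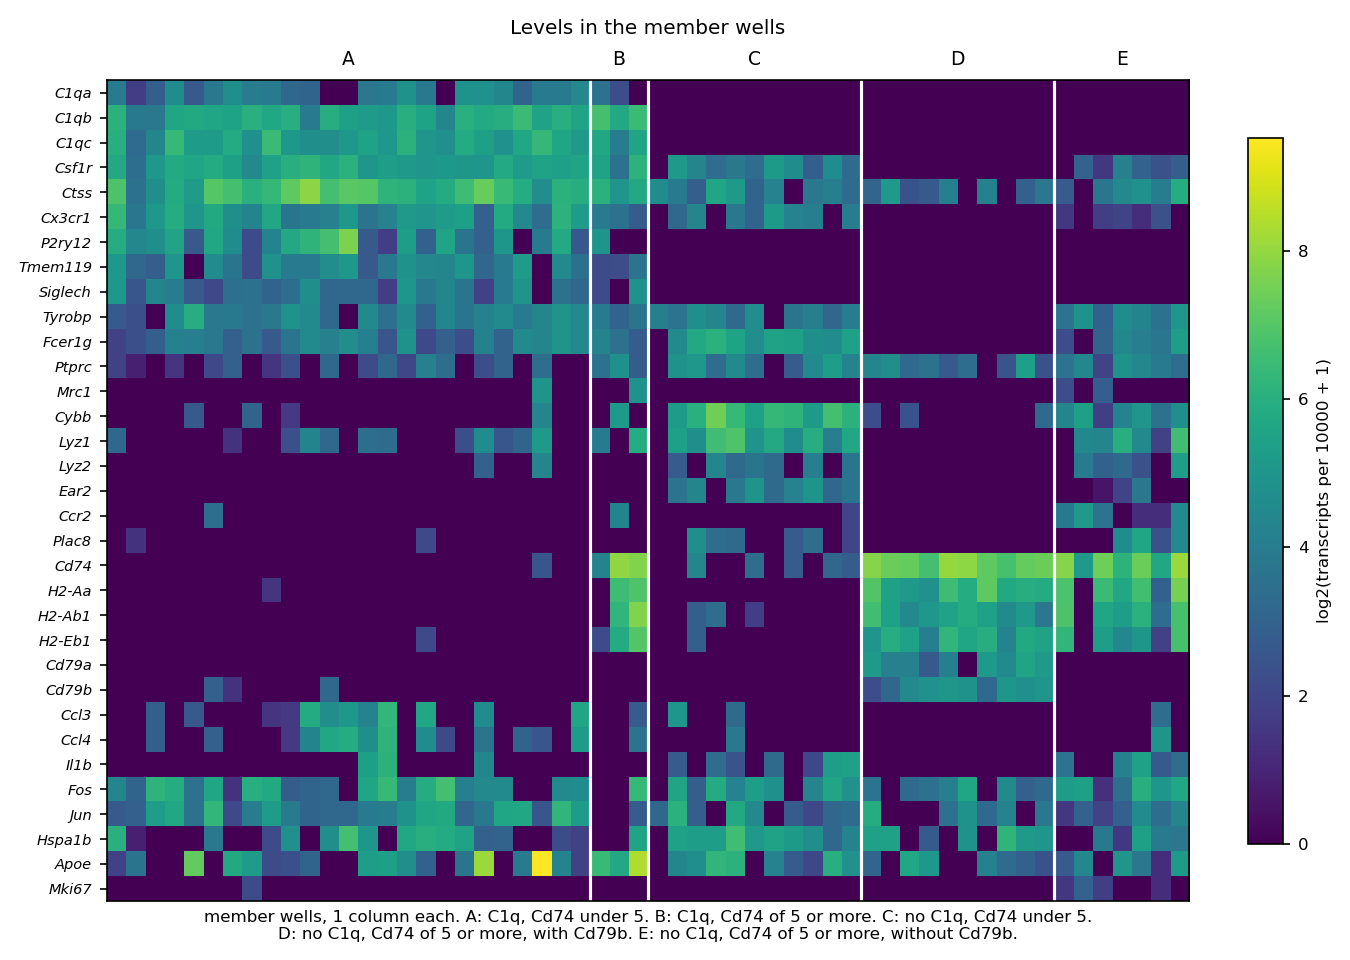
Levels of selected genes (rows, log colour scale of transcripts per 10000) in the 56 member wells, 1 column each, ordered by set: A, 25 wells with C1q and Cd74 under 5; B, 3 with C1q and Cd74 of 5 or more; C, 11 without C1q and with Cd74 under 5; D, 10 with Cd74 of 5 or more and a B cell gene; E, the remaining 7. C1q fills A and B, the homeostatic genes fill most of A, and Cd79a and Cd79b fill D.

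The summed level of the 6 genes chose the wells and is given as a description. It ran from 19.2 to 468 with a median of 196, and 41 of the 56 wells lay over 100. Just inside the minimum lay 19.2, 24 and 24.1, and just outside it lay 12.1, 12 and 10.2. The gap at the minimum was therefore wider than the spacing beside it, and 1524 of the 1733 other wells lay under 1. The genes of the C1q subunits lie together on chromosome 4 in mm10 (C1qc at 136889804 to 136893065 and C1qb at 136880129 to 136886187, both on the minus strand). The deposited tables name genes, not positions, so these come from the GENCODE M21 annotation.

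Promoters of C1qc and Ctss are shown because both hold a motif of a myeloid factor. In the RefSeq promoter table (GRCm38.p6, 250 bases before to 50 after each start) 3 of the 6 rule genes had an entry, and C1qc and Ctss, but not C1qb, held GAGGAAGT, a form of the site of the myeloid factor PU.1, the protein of Spi1. Both strands were searched, and 3.20% of all 32851 promoters hold the motif. It is in 0 of the 17 promoters of the homeostatic microglia list. The shorter core GGAAGT, searched the same way, is in all 3 rule gene promoters and begins 53 bases before the start of C1qb. It is in 7 of the 17 homeostatic promoters (41.2%) and in 23.8% of all promoters. A match is a run of letters and no measured binding site. The windows below are read 5′ to 3′ on the gene's own strand, and capitals mark GAGGAAGT. This motif lies on the other strand in both genes and so appears as its reverse complement. It begins 195 bases before the start of C1qc and 2 bases before that of Ctss.
C1qc, chr4:136893070-136893129, minus strand: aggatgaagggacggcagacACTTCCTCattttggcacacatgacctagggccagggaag
Ctss, chr3:95526764-95526823, plus strand: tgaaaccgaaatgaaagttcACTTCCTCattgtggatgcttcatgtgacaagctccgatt

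Most of the 25 wells with C1q and Cd74 under 5 carried each of the homeostatic genes of microglia named next. P2ry12, the ADP receptor by which microglia sense injury, was present in 24 wells at 36 ± 42.4 (mean and SD over wells) and reached 0.0725 on average in the other wells. Tmem119, a membrane protein used to tell microglia from other macrophages, was present in 23 wells at 17.7 ± 11.1. P2ry12, Tmem119, Siglech, Fcrls and Olfml3 were at 0 in all 28 wells without C1q. The wells of a set share libraries and are not replicates, so their SDs describe cells.

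By a rule that ranked genes outside the 6 by their ratio to the other wells, the leading genes of these 25 wells were Gpr34, a lysophospholipid receptor, Trem2, a lipid-sensing receptor that signals through Tyrobp, Aif1 and Fcrls. Gpr34 was at 12.9 in 22 of the 25 wells and at 0.00331 in the other wells, and Trem2 was at 9.75 in 21 wells and at 0.00265. The Fc receptor Fcgr3 was present in 24 wells at 14.3. Of the receptors among the marker genes, Csf1r was at 42.7 ± 14.2 and Cx3cr1 at 32.6 ± 19.8, both in 25 of 25 wells. Of transcription factors of the lineage, Irf8 was seen in 18 wells, Sall1, which in adult brain macrophages is largely kept to microglia, in 16, and Spi1 in 12. Of the 20 genes of the homeostatic list, all were seen in the C1q wells, with a summed level from 33.3 to 705 and a median of 267. In the wells without C1q and with Cd74 under 5 that sum ran from 0 to 38.4, with 7 of the 20 genes seen.

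Genes of other myeloid cells were low in most C1q wells, with exceptions. Border macrophage genes had a median sum of 8.62 in the 28 C1q wells and a highest value of 238. A single well of library 3 of the Prom1/CD24 sort, with Cd74 under 5, held Apoe, a lipid carrier, at 734. It also held the border macrophage genes Mrc1 (the mannose receptor) at 29.2, Pf4 at 29.2 and Cbr2 at 39.1. P2ry12 was at 14.5 in that well, and Tmem119 and Siglech were at 0. Over the 28 C1q wells P2ry12 was absent from 3. Across the 28 C1q wells Apoe and P2ry12 went in opposite order (Spearman's rho -0.597, Pearson's r -0.250), as a description of wells that share libraries and depth. T and NK cell genes were at 0 in all 28 C1q wells, and of the 6 measured B cell genes Cd79b alone was seen, in 3 of them.

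Levels of P2ry12 and of chemokine RNA in the C1q wells ranged widely within and between sorts. In the day 2 tdTomato sort the 4 C1q wells held P2ry12 at 52.1 to 197, with a median of 87.6. In the Ki67-RFP sort the 8 C1q wells held it at 3.69 to 50.4, with a median of 24.9. The lowest day 2 well thus lay just above the highest Ki67-RFP well. The other sorts of mice of that age overlapped the day 2 wells, with 20.2 and 59.1 in the 2 GLAST/EGF wells and 0 to 55.8 in the 6 Prom1/CD24 wells. In the 5 mixed-sort wells P2ry12 ran from 0 to 46.8. In the day 60 tdTomato sort, from older mice, the 3 C1q wells held it at 2.31, 5.31 and 37.9. Ctss, a lysosomal protease, ran from 103 to 231 in the day 2 wells and from 26 to 126.5 in the Ki67-RFP wells, and reached 157 in the mixed sort. Trem2 was seen in 1 of 4 day 2 wells, 8 of 8 Ki67-RFP wells, 2 of 2 GLAST/EGF wells, 3 of 3 day 60 wells, 4 of 5 mixed-sort wells and 4 of 6 Prom1/CD24 wells. The 4 day 2 wells came from 3 libraries. Their highest P2ry12 levels, 103 and 197, came from wells of library 4 with only 1192 and 1226 transcripts. No sequencing flow cell is named for the day 2 libraries, while all Ki67-RFP libraries name the same one. The part of batch in these levels was not tested. No sort had 3 libraries with 3 or more member wells with Cd74 under 5, so the planned limma comparison of genes between sorts could not be run and these values carry no test.

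**Figure D2:**
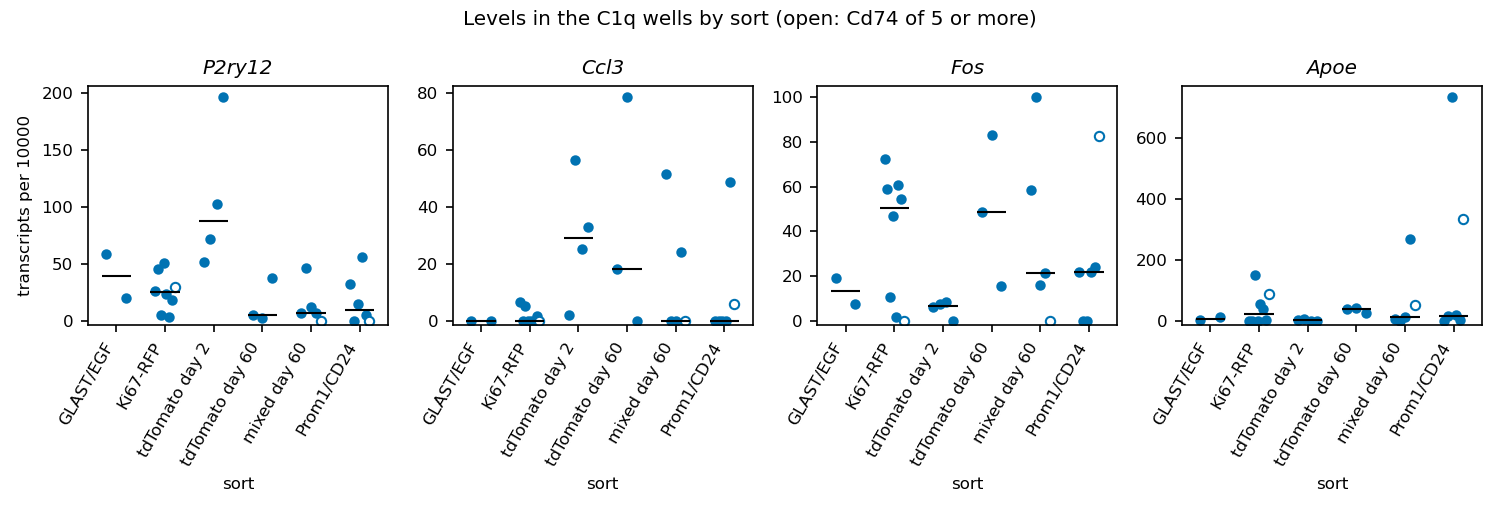
Levels (transcripts per 10000) of selected genes in the 28 C1q wells by sort, 1 point a well, open where Cd74 was 5 or more. P2ry12 in the 4 day 2 tdTomato wells lies at 52.1 to 197, above all 8 Ki67-RFP wells but overlapping the GLAST/EGF and Prom1/CD24 wells, which reach 59.1 and 55.8.

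Chemokine RNA was present in some C1q wells and absent from others. Ccl3 and Ccl4, neighbouring genes for chemokines that draw in leukocytes, were both seen in all 4 day 2 wells, where Ccl3 had a median of 29.1 and Ccl4 of 34.7. In the Ki67-RFP sort Ccl3 was seen in 3 of 8 wells, at no more than 6.46, and in the GLAST/EGF sort in 0 of 2. The day 60 wells reached a higher level than the day 2 wells, with Ccl3 in 2 of 3 at up to 78.5 (day 2 up to 56.5). It was seen in 2 of 5 mixed-sort wells at up to 51.5 and in 2 of 6 Prom1/CD24 wells at up to 48.6. Ccl3 and Ccl4 went in the same order over the 28 wells (Pearson's r 0.827, Spearman's rho 0.804), and how reads of these related genes were assigned is uncertain. Il1b, an inflammatory cytokine, was seen in 2 of the 3 day 60 wells, with a highest level of 68.2, in 1 of 5 mixed-sort wells, and in none of the C1q wells of the other sorts. Fos, an immediate early gene that tissue dissociation can switch on, had medians of 50.6 in the Ki67-RFP wells and 6.66 in the day 2 wells, with 13.3 to 48.6 in the other 4 sorts. The summed level of the list of immediate early and dissociation genes ran from 14.5 to 476 with a median of 231 in the member wells, against a median of 23.7 in the other wells. Its part in the levels above was not tested.

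Mki67, the gene by which the Ki67-RFP and day 2 sorts mark dividing cells, was seen in 1 of the 28 C1q wells, 12 of which came from those 2 sorts. Over all sorts, lists of other division genes were not lower in the C1q wells at the median, but were lower at the mean. The S phase list had a summed median of 5.54 in the C1q wells and 5.30 in the other wells, and the G2 and M phase list 5.93 and 2.78, each at 0 in 7 of the 28. Their means were lower in the C1q wells, at 8.46 against 19.9 and at 7.42 against 23.5. Their highest wells differed, at 37.4 against 159 and at 40.7 against 314. The other wells include the day 60 tdTomato sort, where Mki67 was seen in 0 of 342, and these sums were not split by sort. In the Ki67-RFP sort Mki67 was seen in 3 of 10 member wells and in 71.5% of the 305 other wells. In the day 2 sort it was seen in 1 of 6 member wells and in 31.3% of the 214 others. Top2a, a topoisomerase of dividing cells, was seen in 3 of 10 Ki67-RFP members and 247 of the 305 others there, and at day 2 in 3 of 6 members and 45.8% of the others. Member wells had fewer transcripts (median 2724 against 5226), and a share of wells with a transcript depends on depth. With every well thinned to 1000 transcripts Mki67 was seen in 3.57% of C1q wells and in 12.1% of the other wells over all sorts.

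In the 11 wells with neither C1q nor much Cd74, the leading genes by ratio to the other wells were Lyz2, Cd300e, Napsa, Treml4 and Lyz1, and by ratio to the other members Fpr2 led. Lyz1, a lysozyme, and Cybb, the catalytic subunit of the phagocyte NADPH oxidase, which ranked 12th of the former, were each present in 10 of the 11. Cybb was at 69.5 ± 45.5 and Lyz1 at 46.6 ± 35.4, whereas in the 25 C1q wells with Cd74 under 5 Cybb was at 1.36 in 4 wells and Lyz1 at 5.36 in 12. Lyz1 and Lyz2 are near-identical copies, and reads may be split between them. Csf1r was present in 10 of the 11 wells at 16.7, Cx3cr1 in 8 at 12, the Fc receptor subunit Fcer1g in 10 at 35.4 and the adaptor Tyrobp in 10 at 14.2. These wells also held Itgal, a leukocyte integrin, in 10, Ear2 in 9, Fpr2, a formyl peptide receptor, in 8, Treml4 in 8 and Cd300e in 7. Itgal, Ear2, Treml4 and Cd300e were at 0 in all 25 C1q wells with Cd74 under 5. Ccr2, the chemokine receptor of classical monocytes, was seen in 1 of the 11 and Ly6c2 in 0. The monocyte list had a summed median of 71.1 in these wells, against 3.96 in the C1q wells. Class I genes were also high, with H2-D1 at 51.3 (9.79 in the 25 C1q wells), and reads of the class I copies may be split. The well that lacked Cybb came from library 1 of the day 2 sort and reached the minimum on Ctss alone. The set's genes were chosen after the values were seen, and it is given no cell type name.

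The MHC class II chain genes H2-Aa, H2-Ab1 and H2-Eb1 followed Cd74 in most wells. H2-Aa, which encodes the alpha chain of I-A, was seen in 18 of the 20 wells with Cd74 of 5 or more, at a lowest, median and highest level of 0, 59.2 and 190. In the 36 others it was seen in 1 well, at 1.77. The mean was 72.5 against 0.0492, at least 319-fold higher, computed against a floor of 3 transcripts because the 36 wells held 1 transcript. H2-Ab1, the matching beta chain, was at 53.9 in 18 wells against 0.509 in 3, and H2-Eb1, the beta chain of I-E, at 45.7 in 19 wells against 0.271 in 2. Over the 20 wells Cd74 went with H2-Aa (Pearson's r 0.766, Spearman's rho 0.733), H2-Ab1 (0.633 and 0.825) and H2-Eb1 (0.783 and 0.776). Among the accessory genes, H2-DMa, which helps load peptide, was seen in 12 of the 20, and Ciita, the master regulator of the class II genes, in 6 against 0 of 36. Cd74 split the wells, so no test was made. With each well thinned to 1000 transcripts the share with H2-Aa stayed at 90% and 2.78%.

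**Figure D3:**
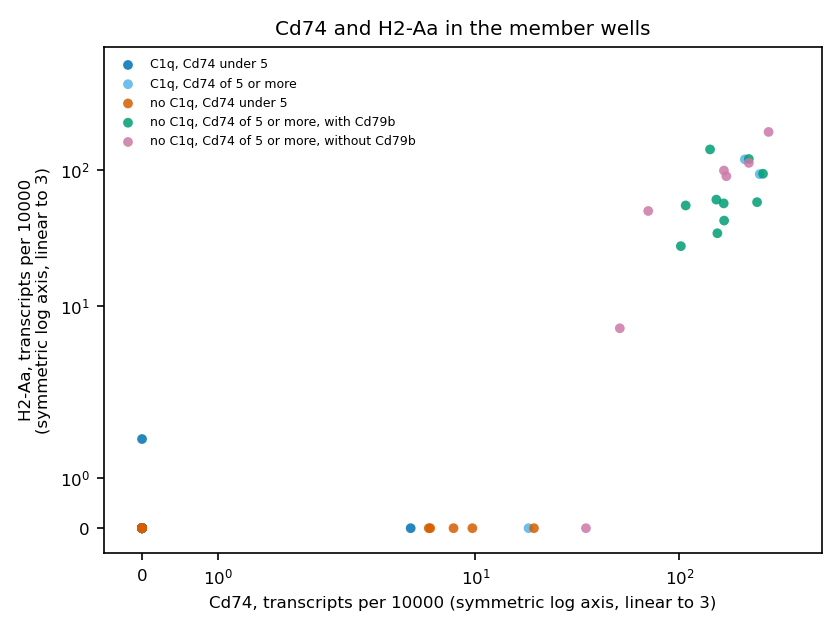
H2-Aa against Cd74 (transcripts per 10000, symmetric log axes, linear to 3) in the 56 member wells, 1 point a well, coloured by set. The wells with Cd74 of 5 or more reach 190 for H2-Aa, 2 of them lie at 0, and 1 of the 36 others lies above 0.

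Promoters of the class II list are shown because H2-Aa, H2-Ab1 and H2-Eb1 went with Cd74 from well to well. The well-known shared stretch upstream of class II genes holds the Y box, CCAAT or its reverse ATTGG, bound by the factor NF-Y. On both strands, CCAAT was found in 8 of the 12 promoters that the RefSeq table holds for the class II list, 1 in each of 8 of the 10 genes with an entry (14 are listed), and in 37.4% of all promoters. H2-Ab1 and Ciita were among the genes with no entry. In the windows below, which run from 90 to 21 bases before the start on the gene's own strand in GRCm38.p6, capitals mark each match, and the 7 genes with a match there are shown. ATTGG begins 48 bases before the start in H2-Aa, 59 in H2-Eb1, 61 in H2-DMb1, 57 in H2-Ob, 43 in H2-Oa, 90 in H2-DMb2 and 88 in Lgmn, and H2-Eb1 has a CCAAT 35 bases before it as well. The promoter of Lgmn, a lysosomal protease gene, lies on chromosome 12 and the others on chromosome 17. Lgmn, 1 of the 8 genes with CCAAT, was lower where Cd74 was high. Its mean was 0.95 in the member wells with Cd74 of 5 or more. In the 36 member wells with Cd74 under 5 it was at 16.0 and seen in 24.
H2-Aa, chr17:34287844-34287913, minus strand: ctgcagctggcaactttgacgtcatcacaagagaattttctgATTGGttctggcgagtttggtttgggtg
H2-Eb1, chr17:34305777-34305846, plus strand: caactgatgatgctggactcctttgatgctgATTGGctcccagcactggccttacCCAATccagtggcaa
H2-DMb1, chr17:34153101-34153170, plus strand: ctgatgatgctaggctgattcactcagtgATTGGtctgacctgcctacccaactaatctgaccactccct
H2-Ob, chr17:34238815-34238884, plus strand: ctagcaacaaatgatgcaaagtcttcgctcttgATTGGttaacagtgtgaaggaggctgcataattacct
H2-Oa, chr17:34092289-34092358, plus strand: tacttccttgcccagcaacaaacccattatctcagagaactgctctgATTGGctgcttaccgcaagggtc
H2-DMb2, chr17:34145159-34145228, plus strand: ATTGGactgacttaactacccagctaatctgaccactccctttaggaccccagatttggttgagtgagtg
Lgmn, chr12:102439749-102439818, minus strand: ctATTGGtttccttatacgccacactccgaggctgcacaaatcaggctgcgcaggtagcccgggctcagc

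Of the 20 wells with Cd74 of 5 or more, 10 held B cell genes and no C1q, and the label of microglia or macrophages does not suit them. Cd79b, a signalling chain of the B cell receptor, was seen in all 10 at 21.9 ± 10.9, and its partner Cd79a in 9 at 22.8 ± 14.6. The other 1733 wells held Cd79a at 0.0143 on average. Csf1r, Cx3cr1, Tyrobp and Fcer1g were at 0 in all 10, and Lyz1 too. Cd22, an inhibitory co-receptor, was seen in 8, Bank1 in 7, the lymph node homing receptor Ccr7 in 6, and H2-Ob, a class II modulator of B cells, in 7. These wells reached the minimum through Cd74, at 102 to 257, and Ctss, seen in 8 of them. They came from the mixed day 60 sort in 9 cases and from library 4 of the day 60 tdTomato sort in 1.

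The 7 wells with Cd74 of 5 or more but neither C1q nor B cell genes held myeloid genes. Tyrobp was seen in all 7 at 18.7 ± 9.46 and Cybb in all 7 at 21.3 ± 12.9. Ccr2 was seen in 6 at 12.1 and S100a4 in 6 at 16.4. Ly6c2 was seen in 4 of the 7 and F13a1 in 4. They were the deepest of the sets, with a median of 7182 transcripts, and the deepest member well of all, in library 2 of the day 2 sort with 21371 transcripts, was among them and ranked 6th of all 1789 passing wells. That well held Cd74 at 170 and H2-Aa at 89.8. Class II was not high in every one. A Ki67-RFP well of library 4 held Cd74 at 34.8 with H2-Aa, H2-Ab1 and H2-Eb1 at 0, and a mixed-sort well of library 1 held H2-Aa at 6.85. Dendritic cell genes had a summed median of 8.43 in the 7 wells against 2.98 in the other wells, with Flt3 seen in 2 of 7 and Xcr1 in 0.

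The 3 C1q wells with Cd74 of 5 or more were unlike each other. The Ki67-RFP well of library 3 held Cd74 at 18.2, P2ry12 at 29.3 and no H2-Aa. The mixed-sort well of library 2 held Cd74 at 248 and H2-Aa at 93, with P2ry12 at 0 and Ccr2 at 18.6. The Prom1/CD24 well of library 1 held Cd74 at 209, H2-Aa at 119 and Mrc1 at 29, with P2ry12 at 0 and Apoe at 333. High class II and P2ry12 were thus not seen in the same well among these 3, each of which is 1 well.

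Member wells were spread unevenly over the sorts. The Troy-GFP sort had 0 of 311 passing wells, which allows a share of up to 0.965%. There were 2 of 216 in the GLAST/EGF sort, 10 of 315 in the Ki67-RFP sort, 6 of 220 at day 2, 7 of 349 at day 60, 25 of 314 in the mixed day 60 sort and 6 of 64 in the Prom1/CD24 sort. As means over 4 libraries the share was 8.01% ± 2.18 (SD, n = 4) in the mixed sort, 3.17% ± 0.717 in the Ki67-RFP sort, 2.94% ± 2.04 at day 2, 2.01% ± 1.11 at day 60 and 0.935% ± 1.10 in the GLAST/EGF sort. The Prom1/CD24 share of 10.3% ± 6.02 rests on 11 to 20 passing wells a library, in libraries where ERCC RNA made up 44.3% to 56.8% of all transcripts (6.57% to 17.7% elsewhere). Sorts also differed in which members they held. C1q was present in 23 of the 31 members outside the mixed sort and in 5 of its 25. The plot of members by library shows the split.

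**Figure D4:**
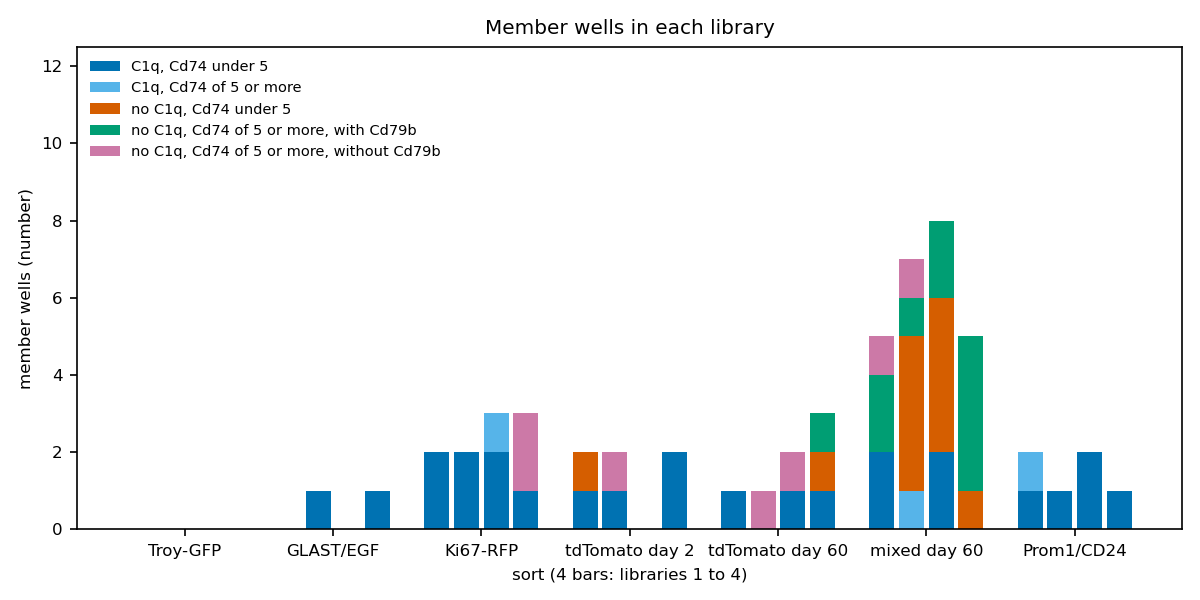
Number of member wells in each library (bars from 0, 4 libraries for each of the 7 sorts), divided by set. The mixed day 60 sort holds 25, mostly without C1q, and the Troy-GFP sort holds 0.

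Every pair of sorts was compared by an exact 2-sided permutation test of the library shares. Of 21 pairs, 13 did not overlap and were called, each with an exact p of 0.0286, the smallest 4 against 4 libraries allow, and 0.0462 after Benjamini-Hochberg adjustment over the 21. The mixed sort exceeded the Troy-GFP sort by 8.01 percentage points, the GLAST/EGF sort by 7.08, the day 60 sort by 6.01, the day 2 sort by 5.07 and the Ki67-RFP sort by 4.84. The mixed and Prom1/CD24 sorts were not separated (difference -2.29 points, adjusted p = 0.63, exact permutation test), nor were the Ki67-RFP and day 2 sorts (0.231 points, adjusted p = 0.914, exact permutation test). The calls sit at the edge of what the design allows. Without any 1 of the 4 Troy-GFP or the 4 Ki67-RFP libraries 0 of 21 pairs were called by this test (10 to 11 at an unadjusted p under 0.05, smallest adjusted p 0.0545 to 0.06, exact permutation test). Without any 1 of the GLAST/EGF libraries 12 pairs sat at an adjusted p of exactly 0.05 (permutation test), counted as called. With a minimum of 2000 transcripts, or with Cd74 left out of the sum, 0 pairs were called (6 and 10 unadjusted).

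In the mixed sort the members sat at particular well numbers. The deposited columns number the wells of a library from 1 to 96, and 12 of these numbers are divisible by 8. At those 12 numbers 21 of 41 passing mixed-sort wells were members (51.2%), with 3 of 10, 7 of 11, 6 of 11 and 5 of 9 in libraries 1 to 4. At all other numbers 4 of 273 were members (1.47%), with 2, 0, 2 and 0 in the 4 libraries. Over libraries the share was 50.9% ± 14.5 against 1.48% ± 1.72 (SD, n = 4). In the other 6 sorts the same numbers held 2 members in 179 passing wells (1.12%), beside 2.10% at all numbers. The split was chosen after the values were seen and gets no test. The labels do not say which wells of the mixed sort received which cells.

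Leukocyte genes were common at these numbers in members and other wells alike. Of the 21 members there 18 had no C1q, namely 8 with Cd74 under 5, 9 with B cell genes and 1 of the remaining set. Ptprc, which encodes the leukocyte surface protein CD45, was seen in 34 of all 41 wells (82.9%) at those numbers. Among the 20 wells there that were not members it was seen in 15 (75%) at a mean of 15.3, against 2.23% of non-member wells at the other mixed-sort numbers and 0.831% in the other sorts. In 12 of those 20 wells at least 1 gene of the T and NK cell list was seen. Such a gene was seen in 8 of 269 non-member wells at the other mixed-sort numbers and in 37 of 1444 in the other sorts. Among leukocyte genes in those 20 wells, Cd3e, a chain of the T cell receptor complex, was seen in 6 and Ms4a4b in 9. The cytotoxic granule genes Nkg7 and Gzma were each seen in 5, and the neutrophil gene S100a8 in 1. Wells at these numbers were shallower (median 2287 transcripts against 5086 at the other numbers).

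Slc1a3, the gene of GLAST, also followed the well number in the mixed sort. It averaged 12.7 to 32 at numbers that leave 5 to 7 on division by 8 and 0.491 at numbers divisible by 8. The plot by well number shows it alongside Ptprc.

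**Figure D5:**
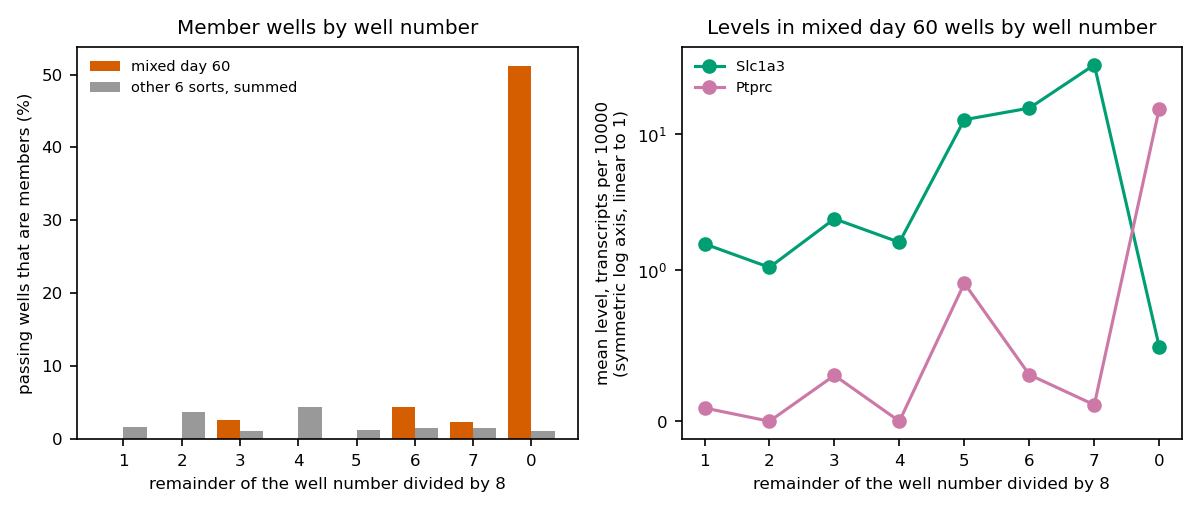
Left, percent of passing wells that are members by the remainder of the well number divided by 8, for the mixed day 60 sort and the other sorts. Right, mean levels in the mixed sort (transcripts per 10000, symmetric log axis, linear to 1); members reach 51.2% at remainder 0, where Ptprc averages 15.3 and Slc1a3 0.491.

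Of the 25 members of the mixed sort, 21 lay at these numbers. With the mixed-sort wells at numbers divisible by 8 left out, an alternative added after seeing the data, 35 members remained, 9 of them with Cd74 of 5 or more, and 26 with Cd74 under 5, of which 88.5% held C1q. These wells were singled out because they held members, so a lower share of the mixed sort was fixed by the choice and the values are a description with no test. The mixed sort then lay 1.48 points above the Troy-GFP sort and 0.543 above the GLAST/EGF sort, and -1.69 from the Ki67-RFP sort, so its direction against the Ki67-RFP and both tdTomato sorts turned. The member sets changed too: C1q was then in 25 of the 35.

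RNA of other brain cells was present in member wells and followed the sort. Slc1a2, a glutamate transporter of astroglia, was seen in 7 of 7 day 60 members at no more than 7.56, while the other day 60 wells had a median of 82.7. Dcx, a neuroblast gene, was seen in 3 of 10 Ki67-RFP members and in 77.4% of the other Ki67-RFP wells. The astroglia list had a summed median of 19.6 in members and 42.7 in the other wells, the neuroblast list 3.64 and 5.79, the oligodendrocyte list 21.7 and 2.13, and the endothelial list 2.45 and 2.06. The 8 pericyte and smooth muscle genes were at 0 in all 56. Conversely, any C1q was seen in 5.19% of the other wells, and in 1.21% after thinning to 1000 transcripts, against 100% of the C1q wells. The part of free RNA or of a shared well in these values was not tested. After that thinning the share of member wells with any C1q was unchanged, at 69.4% of wells with Cd74 under 5 and 15% of the others. C1q and Cd74 both chose the wells, and a member with little Cd74 had to qualify on the other 5 genes, so a gap of this direction is built into the choice.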

How the data were processed

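The deposited values, 1 table for each of 28 libraries, are transcript estimates per gene and well. Per the submitters' processing notes BWA 0.6.2-r126 and mm10 were used, with roles not given in the sources used here. Tested on the tables, 4.73511e+06 of 4.73512e+06 values above 0 equal the collision correction of a whole number of the 256 random barcodes (tolerance 1e-06), so no count model was used on these other values deposited by the authors. Library totals ran from 77795 to 575257 transcripts.

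Groups came from the labels. Wells with 1000 or more non-ERCC transcripts were kept, levels were scaled to 10000, and members were chosen by the 6 genes. The members and the gene lists were chosen with earlier results of these data known. Genes named are the rule and marker genes, the highest of each list, and those leading by ratio (minimum share of wells 25% or 30%). The sets and other genes that describe them were chosen after their values were seen. Shares of wells per library were compared with exact 2-sided permutation tests for 21 pairs of sorts, with Benjamini-Hochberg adjustment at 0.05. Thinning drew 1000 transcripts a well. The limit for a count of 0 uses 3 counts and covers counting error only. A planned comparison of genes between sorts could not be run, since 0 sorts had 3 libraries with 3 wells. Doublets were not called, and all 96 well numbers occur in every library. Python 3.11.15, pandas 2.3.3, numpy 2.4.6 and scipy 1.17.1 were used. Alternatives were other minima, Cd74 left out of the sum, observed barcodes in place of estimates, each library left out, the Prom1/CD24 sort left out, a replicate block and the wells at numbers divisible by 8 left out. The last 3 were added after seeing the data. Some genes are not reported here.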

Additional observations from a re-analysis of the deposited data

Results flagged for a closer look

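Wells under the minimum depth, which no comparison used, also held the 6 genes. Of 564 wells with at least 100 but under 1000 transcripts, 60 reached 15 per 10000, and 16 of these did so on 3 or more transcripts of the 6 genes. C1q was seen in 40 of the 60 and Cd74 of 5 or more in 1. The Prom1/CD24 sort held 38 of them and the Troy-GFP sort 0. Their median was 397 transcripts, where 1 transcript alone passes the minimum, and no Troy-GFP well at any depth from 100 upward reached it. Among 7 groups of 4 library shares, no library stood apart by Dixon's criterion.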

How the results depend on the processing

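Of 186 values recomputed under alternatives, 134 kept their direction and call or lay near the first value, and 4 turned direction. The number of members was 37 with a minimum of 2000 transcripts and 35 without the mixed-sort wells at numbers divisible by 8, the number of C1q wells was 46 of 77 members with a minimum of 500, and the number with Cd74 of 5 or more was 12 at 2000, 10 with Cd74 left out of the sum and 9 without the wells at numbers divisible by 8. The 13 called pairs of sorts became 0 at a minimum of 2000 (6 at an unadjusted p under 0.05), 0 with Cd74 left out of the sum (10 unadjusted) and 0 without the wells at numbers divisible by 8 (9 unadjusted), which were singled out because they held members, so that this last fall was fixed by the choice. With each library left out in turn the number ran from 0 to 13. With library numbers as a replicate block (exact sign flips) 0 pairs were called, 0 also unadjusted, since 4 pairs cannot give a p under 0.125 (0.1875 adjusted). The numbers are shared numbers only: 0 of 21 pairs of sorts had every same-number correlation over 0.1. Over 2333 genes the mean same-number correlation was 0.00319 against -0.000871 for other numbers. In 17 of 84 comparisons, 4 for each pair of sorts, a library correlated best with its own number. The share of wells with C1q, as wells with Cd74 of 5 or more minus the others, was -54.4 percentage points, -22.4 in the mixed sort alone and -66.2 without the wells at numbers divisible by 8. Both genes chose the wells, which builds in a negative difference. Those wells left out, the mixed sort's difference turned to -1.69 points against the Ki67-RFP sort, -1.46 against day 2 and -0.53 against day 60. Against the Prom1/CD24 sort it ran from -4.05 without Prom1/CD24 replicate 2 to 0.342 without replicate 1, where it turned. Fewer wells are tested at the higher minimum. Apart from the fall fixed by the choice of wells, the cause of the changes was not tested. The alternatives of the limma fit were not run. A library holds few member wells, and 11 to 89 passing wells, which limits every comparison between sorts.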

Other observations

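Functional gene lists described the sets further, as summed levels in transcripts per 10000 with no test, since the wells were chosen by genes of the same cells. Phagocytic and Fc receptor genes had a median of 149 in the 28 C1q wells, 112 in the 11 wells without C1q and with Cd74 under 5 and 32.2 in the 10 wells with B cell genes, against 0.598 in the other wells. Lysosomal genes had a median of 155 in the C1q wells and 47.6, 20.6 and 76.1 in the 3 sets without C1q, against 26 in the other wells. Ctsd, a lysosomal protease, was at 46.3 in the 25 C1q wells with Cd74 under 5 and at 1.34 in the 11 wells without C1q. MHC class I genes had their highest median, 166, in those 11 wells, against 68.8 in the C1q wells. Interferon response genes had a median of 6.68 in the C1q wells, with a highest well at 104, and 41.5 in the 7 wells with Cd74 and neither C1q nor B cell genes. Genes of the disease-associated state of microglia had a median of 101 in the C1q wells against 65.5 in the other wells. That median was 88 in the 25 C1q wells with Cd74 under 5 and higher, 138, in the 11 wells without C1q and with Cd74 under 5. The list includes Apoe, which astroglia also make.

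Trf, which encodes the iron carrier transferrin and is usually read as an oligodendrocyte gene, was seen in 25 of the 31 member wells outside the mixed sort, with a median of 5.75. Among the other wells it was seen in 3.28% in the Ki67-RFP sort and 1.40% in the day 2 sort, while 8 of 10 and 4 of 6 members there held it. In the Prom1/CD24 sort all 6 members held it, at a median of 24.5. The mixed sort went the other way, with Trf in 8 of 25 members (32%) and in 61.2% of its 289 other wells. Its members were mostly wells without C1q (20 of 25, against 8 of 31 elsewhere), and its sorted cells included oligodendrocytes. Wells with and without C1q occurred both in the mixed sort and outside it, but the Trf values were not split by set within a sort. The parts of sort and set in them were not tested. Trf was singled out after its values were seen.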
